A study of Danio rerio with 20 samples.

Results

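htr7a encodes a 5-HT7 serotonin receptor. Among the 10 neurons of the zebrafish dorsal pallium that joined a synchronized calcium oscillation, 6 had htr7a at 20 CPM or more (CPM, read counts scaled to a common library total) and were taken as htr7a-high, and 4 were below 20 CPM and were taken as htr7a-low. They are 10 of the 20 cells in the series, and the other 10 cells were non-synchronized. The cells were chosen by their measured htr7a level, so htr7a is described here without a test. The comparison asked which other genes differed between synchronized neurons with and without high htr7a.

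All 20 cells came from Tg(HuC:H2B-GCaMP6f) fish aged 4 to 5 weeks, a line in which the HuC promoter drives a calcium indicator in neuronal nuclei. The fish were imaged under a two-photon microscope in a recording chamber after CAS, an alarm substance of their own species. Synchronized and non-synchronized neurons were then drawn separately into a glass pipette. The htr7a-high cells (label numbers 6, 9, 14-1, 16, 21 and 22), the htr7a-low cells (4, 4-1, 5 and 20) and the non-synchronized cells therefore share the line, the age and the treatment. Each library was taken as 1 cell. The fish behind each cell is not named, so each set of cells counts as 1 sample, and no test or p-value between the groups was computed. Every SD below is a spread between cells.

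5-HT7 receptors couple to the stimulatory G protein Gs, which activates adenylyl cyclase and raises cAMP. cAMP acts through protein kinase A, exchange factors such as Rapgef3 and cyclic nucleotide gated channels such as the HCN channels, and phosphodiesterases break it down. In mammalian neurons the receptor is known for raising excitability, in part through potassium and HCN currents. The dorsal pallium of fish holds mainly glutamatergic neurons that express transcription factors of the Tbr, Neurod and Emx families.

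Total counts were 1299507 to 2322879 in htr7a-high cells and 795838 to 2493351 in htr7a-low cells. At least 1 count was found for 7980 to 10878 genes in htr7a-high cells and for 6878 to 10824 genes in htr7a-low cells. Genes of other cells were not spread evenly. Red blood cell genes together reached at most 509 CPM in htr7a-high cells (cell 6), against 100.5 in cell 4, 1631 in cell 4-1, 11297 in cell 5 and 0.465 in cell 20 among the htr7a-low cells. The GABA neuron genes gad1b, gad2 and slc32a1 summed to 0 to 6.27 CPM in htr7a-high cells and to 683 CPM in htr7a-low cell 4-1, against 0 to 13.01 CPM in the other 3 htr7a-low cells. Microglia and leukocyte genes summed to 381 CPM in htr7a-high cell 14-1 and to at most 37.6 CPM in the other synchronized cells. Pan-neuronal genes summed to 11485 to 20909.5 CPM in htr7a-high cells and 12126 to 19343 CPM in htr7a-low cells, so neuronal genes were abundant in all 10. The part that RNA of other cells has in the results below was not tested. Counts for several gene lists are also given without cells 4-1 and 5, a choice made after seeing the data.

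htr7a had 37.7 CPM in cell 6, 26.9 in cell 9, 113 in cell 14-1, 146 in cell 16, 115 in cell 21 and 24.5 in cell 22. In the htr7a-low cells it had 2.51 CPM in cell 4, 3.61 in cell 4-1, 0 in cell 5 and 0.929 in cell 20. The cell just inside the threshold was cell 22 and the cell just outside it was cell 4-1, and no cell lay between 3.61 and 24.5 CPM. The htr7a-high cells themselves divided into cells 14-1, 16 and 21, above 110 CPM, and cells 6, 9 and 22, below 40 CPM. In counts, htr7a had 907 reads over the 6 htr7a-high cells and 13 reads over the 4 htr7a-low cells. A count of 0 in cell 5 allows up to 2.36 CPM, and this limit, like all intervals here, covers counting error only because reads were counted without molecular identifiers. All 10 non-synchronized cells had 0 htr7a counts.

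**Figure D1:**
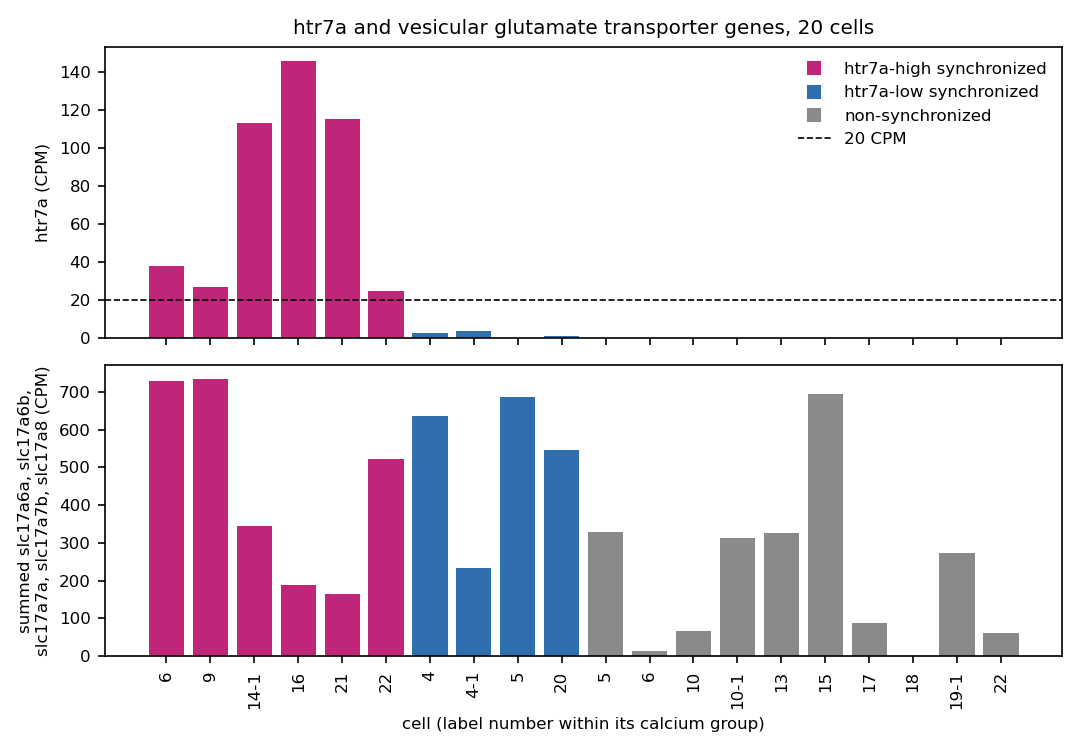
CPM of htr7a (top) and of the summed vesicular glutamate transporter genes (bottom) in each of the 20 cells, coloured by group, with the 20 CPM threshold as a dashed line. The 3 cells with the most htr7a, 14-1, 16 and 21, had transporter sums of 345, 189 and 165 CPM, the lowest among the htr7a-high cells. This division was neither planned nor tested, and the htr7a-low cells had sums of 233 to 685 CPM.

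The genes of serotonin reception other than htr7a did not separate the groups. Of 10 measured 5-HT receptor genes (mean of at least 1 CPM over the 10 cells), only htr7a, whose level made the groups, had no overlap between groups. Of all measured genes, 0.407% had no overlap in the direction of higher and 0.34% in the direction of lower. With shares this small, so short a list cannot tell receptor genes from other genes. htr1aa, a Gi-coupled 5-HT1A receptor gene, had 111 CPM in cell 14-1, 67.9 in cell 22 and 5.597 in cell 21 and none in the other htr7a-high cells, against 27.4 CPM in cell 20 and none in the other htr7a-low cells. htr1d, also of the Gi-coupled 5-HT1 family, had 18.8 CPM in cell 22, 0.502 in cell 16 and none in the other 4 htr7a-high cells, against 313 CPM in htr7a-low cell 5, 31.1 in cell 20, 6.28 in cell 4 and 0.802 in cell 4-1. Its level in htr7a-low cells thus came mainly from cell 5. htr7c, a paralog of htr7a, was nearly absent from htr7a-high cells, with a highest value of 0.570 CPM in cell 14-1, against 104 CPM in cell 4 and at most 0.929 CPM in the other htr7a-low cells. htr6 (43.1 CPM) and htr4 (32.1 CPM), both Gs-coupled receptors, exceeded 1 CPM among the synchronized cells in htr7a-high cell 16 only, the cell with the most htr7a. htr2ab, htr3a and htr5ab had their highest values, 35.2, 33.9 and 101 CPM, in htr7a-high cell 22, and htr2cl1 its highest, 66.9 CPM, in htr7a-high cell 9.

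Across all 13526 measured genes, the measure of difference was the mean of log2(CPM + 10) over htr7a-high cells minus that over htr7a-low cells. Because 10 CPM is added, it understates the change of low genes, and it is no bound where a group is at 0. Its median over all measured genes was 0.08. A gene is called separated below when the cells of the groups did not overlap and the difference was at least 1. By this rule 53 genes were higher in htr7a-high cells, htr7a included, which is 0.392% of the measured genes, and 41 were lower, which is 0.303%. In simulated counts of 9041 genes, the spread given to each gene between cells was at most as large as its mean. There the rule called 0.871% of the genes that were given no difference, both directions together. It called 38% of the 200 genes that were given an 8-fold difference. Genes with a larger spread were not represented, so these rates may not hold for the real cells. In the real cells the rule called 51 higher and 32 lower among the 9041 genes with a mean of at least 10 CPM. Being separated therefore does not by itself link a gene to htr7a. No overlap alone, whatever the size of the difference, held for 55 genes in the direction of higher (0.407%) and 46 in the direction of lower (0.34%). A difference of at least 1 alone, without the demand for no overlap, held for 1539 genes (11.4%) in the direction of higher and 1223 (9.04%) in the direction of lower. Without cells 4-1 and 5 the separated genes numbered 162 higher and 390 lower, and a difference of at least 1 held for 11.1% of the measured genes in the direction of higher and 14.7% in the direction of lower. Without cell 20 they numbered 220 higher and 128 lower. Any removal of cells makes it easier for groups not to overlap, so these counts rise by construction.

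The separated genes higher in htr7a-high cells ranged over several cellular roles. arhgap4a, which encodes a GTPase-activating protein, had 1619.9 CPM in cell 6, 2025 in cell 9, 1117 in cell 14-1, 1793 in cell 16, 1028 in cell 21 and 247 in cell 22, against 84.2 in cell 4, 44.1 in cell 4-1, 0 in cell 5 and 186 in cell 20. Its difference of 4.29 was the largest of the separated genes, although cell 22 lay close to cell 20. gpx4a, a glutathione peroxidase that reduces lipid peroxides, averaged 285 ± 160 CPM in htr7a-high cells (SD, n = 6) and 34.1 ± 42.6 CPM in htr7a-low cells (SD, n = 4), a difference of 3.26. apex2, an endonuclease of DNA repair, averaged 183 ± 184 CPM in htr7a-high cells and 5.99 ± 8.32 CPM in htr7a-low cells, and bsdc1 averaged 169 ± 67.0 CPM in htr7a-high cells and 14.9 ± 14.7 CPM in htr7a-low cells. Both were at 0 in htr7a-low cell 4, the shallowest library, and apex2 also in cell 4-1.

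foxp1a, a forkhead transcription factor gene, had 64.6, 18.1, 107, 10.0, 121 and 138 CPM in htr7a-high cells 6, 9, 14-1, 16, 21 and 22, against 0, 0.401, 0 and 0.929 CPM in htr7a-low cells 4, 4-1, 5 and 20. It was thus close to absent in every htr7a-low cell, with 833 counts over the htr7a-high cells and 3 over the htr7a-low cells. plk2a, a polo-like kinase gene induced by activity in mammalian neurons, ranged from 26.4 to 208 CPM in htr7a-high cells and from 0 to 8.83 CPM in htr7a-low cells. gpalpp1 ranged from 22.1 to 241 CPM in htr7a-high cells and from 0 to 2.51 CPM in htr7a-low cells.

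ss18, a subunit gene of the BAF chromatin remodelling complex, was abundant in both groups, at 801 to 1986 CPM in htr7a-high cells and 81.8 to 716 CPM in htr7a-low cells. zgc:122979 had 1131 to 4050.1 CPM in htr7a-high cells and 59.4 to 730 CPM in htr7a-low cells. For ss18, cell 20 lay nearest to the htr7a-high cells, at 716 CPM. For zgc:122979, cell 4 at 730 CPM and cell 20 at 723 CPM lay nearest. The RNA-binding protein gene rbm6 averaged 100.4 ± 70.4 CPM in htr7a-high cells and 5.34 ± 8.08 CPM in htr7a-low cells, and C7H16orf87 averaged 337 ± 228 CPM in htr7a-high cells and 52.7 ± 39.3 CPM in htr7a-low cells. Of the 52 genes besides htr7a, 4 were at 0 in every htr7a-low cell, and in 26 the htr7a-low cell nearest to the htr7a-high cells was cell 20. The shares over all measured genes were not computed. Cell 20 also had the most genes with a count among the htr7a-low cells, 10824, so these counts do not mark it out.

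**Figure D2:**
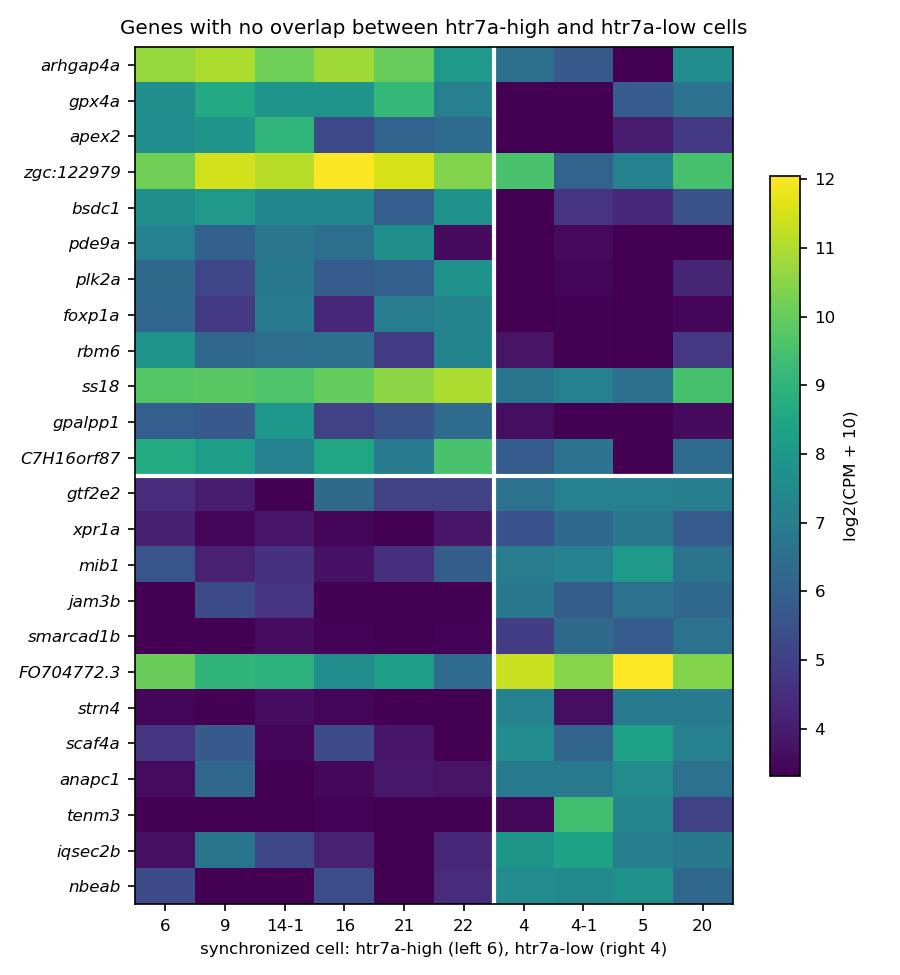
log2(CPM + 10) in each synchronized cell (columns; htr7a-high left of the white line, htr7a-low right) for the 12 genes with the largest difference in each direction (rows), chosen because their cells did not overlap. arhgap4a is dimmest in htr7a-high cell 22 at 247 CPM, and tenm3 is brightest in htr7a-low cell 4-1 at 670 CPM.

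The separated genes lower in htr7a-high cells were mostly near 0 there. nbeab, which encodes the membrane trafficking protein neurobeachin, had 30.0 CPM in cell 6, 31.6 in cell 16, 11.3 in cell 22 and 0 in cells 9, 14-1 and 21, against 176, 166, 214 and 66.4 CPM in htr7a-low cells 4, 4-1, 5 and 20. Its difference of -3.08 was the largest in this direction, and all 4 htr7a-low cells were above the highest htr7a-high cell. iqsec2b, an exchange factor for ARF GTPases found at excitatory synapses in mammals, averaged 23.7 ± 36.4 CPM in htr7a-high cells and 197 ± 103 CPM in htr7a-low cells, and cell 9 was the highest htr7a-high cell at 95.6 CPM. anapc1, a subunit gene of the anaphase-promoting complex, averaged 12.99 ± 25.8 CPM in htr7a-high cells and 120 ± 39.2 CPM in htr7a-low cells, again with cell 9 highest among the htr7a-high cells, at 65.6 CPM.

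tenm3, a teneurin adhesion gene, had 1 count in cell 16 and none in the other htr7a-high cells, against 1.26, 670, 146 and 22.8 CPM in htr7a-low cells 4, 4-1, 5 and 20. Its mean rested on cell 4-1, and the difference was -2.97 with all cells, -1.94 without cell 4-1 and -0.93 without cells 4-1 and 5, which is below the size of 1 that the rule asks for. strn4, a striatin gene, was at most 2.28 CPM in htr7a-high cells and at 137, 2.41, 108 and 110 CPM in htr7a-low cells 4, 4-1, 5 and 20, so cell 4-1 was separated from the htr7a-high cells by a margin of under 1 CPM. smarcad1b, a chromatin remodeller gene, was at most 2.28 CPM in htr7a-high cells and at 20.1 to 88.3 CPM in htr7a-low cells. mib1, whose product is a ubiquitin ligase for Notch ligands, averaged 20.9 ± 18.4 CPM in htr7a-high cells and 150 ± 71.2 CPM in htr7a-low cells.

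The phosphate exporter gene xpr1a averaged 2.96 ± 2.73 CPM in htr7a-high cells and 64.9 ± 30.4 CPM in htr7a-low cells, and jam3b, a junctional adhesion gene, averaged 7.48 ± 12.4 CPM in htr7a-high cells and 76.0 ± 23.9 CPM in htr7a-low cells. scaf4a averaged 15.8 ± 17.8 CPM in htr7a-high cells and 169 ± 105 CPM in htr7a-low cells, and gtf2e2, a subunit gene of the general transcription factor TFIIE, averaged 22.4 ± 25.4 CPM in htr7a-high cells and 118 ± 21.2 CPM in htr7a-low cells. FO704772.3 was abundant, with 435 ± 354 CPM in htr7a-high cells and 2390.2 ± 1345 CPM in htr7a-low cells. Of the 41 genes, 8 were at 0 in every htr7a-high cell, a count whose share over all measured genes was not computed. The mean of the non-synchronized cells was closer to the htr7a-high cells for 28 of these 41 genes, and closer to the htr7a-low cells for 32 of the 52 higher genes. In both sets that is the side with the lower level. The share over all measured genes was not computed, so these counts do not relate the non-synchronized cells to either group.

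Genes were also ordered by Spearman's correlation of their level with that of htr7a over the 10 cells. It is given as a description, for the highest and lowest of 6916 genes, since the same htr7a values made the groups, so that the split alone gives high values, and the cells differ in depth and in RNA of other cells. ccn2a, a matricellular protein gene, had a correlation of 0.92, with 85.4 CPM in cell 6, 63.9 in cell 9, 161 in cell 14-1, 1259 in cell 16, 1686 in cell 21 and 0 in cell 22, and with 0 in all 4 htr7a-low cells. pyya, the gene of the neuropeptide peptide YY, had a correlation of 0.89, with 349 CPM in cell 6, 296 in cell 9, 1.71 in cell 14-1, 2503 in cell 16, 3369.5 in cell 21 and 0 in cell 22, and again 0 in all 4 htr7a-low cells. Both genes were therefore found in 5 of 6 htr7a-high cells and were most abundant in the same cells, 16 and 21.

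Over the summed reads, pyya was at least 2779-fold and ccn2a at least 1388-fold higher in htr7a-high cells, taking 3 counts over all htr7a-low cells as the floor. These bounds cover counting error only and rest largely on cells 16 and 21. Neither gene met the no-overlap rule, because cell 22 had none. Of the non-synchronized cells, 1 had pyya, at 288 CPM, and 2 had ccn2a, at up to 4.13 CPM.

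pde9a, a cGMP-specific phosphodiesterase gene, had a correlation of 0.90 and was also separated, with 131, 55.9, 98.1, 79.3, 193 and 1.88 CPM in htr7a-high cells 6, 9, 14-1, 16, 21 and 22, against 1.604 CPM in htr7a-low cell 4-1 and 0 in cells 4, 5 and 20. The separation rested on a margin of under 1 CPM between cells 22 and 4-1. rpa1, a replication protein gene, averaged 77.5 ± 69.4 CPM in htr7a-high cells and 6.85 ± 13.7 CPM in htr7a-low cells with a correlation of 0.89. pdha1a, a pyruvate dehydrogenase subunit gene, averaged 269 ± 154 CPM in htr7a-high cells and 59.9 ± 29.8 CPM in htr7a-low cells with a correlation of 0.88, and ek1 averaged 278 ± 149 CPM in htr7a-high cells and 75.6 ± 52.9 CPM in htr7a-low cells with a correlation of 0.88.

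At the other end, the cAMP phosphodiesterase gene pde8a, the phosphatase 2A subunit gene ppp2r2bb and the catenin-like gene ctnnal1 each had a correlation of -0.92. pde8a averaged 6.22 ± 12.7 CPM in htr7a-high cells and 42.3 ± 44.6 CPM in htr7a-low cells, with the highest htr7a-high value, 32.0 CPM, in cell 22 and the highest htr7a-low value, 105 CPM, in cell 5. ppp2r2bb averaged 7.32 ± 8.72 CPM in htr7a-high cells and 59.8 ± 48.6 CPM in htr7a-low cells. akap1b, an anchoring protein gene for protein kinase A, averaged 16.1 ± 21.7 CPM in htr7a-high cells and 48.1 ± 16.2 CPM in htr7a-low cells with a correlation of -0.87.

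**Figure D3:**
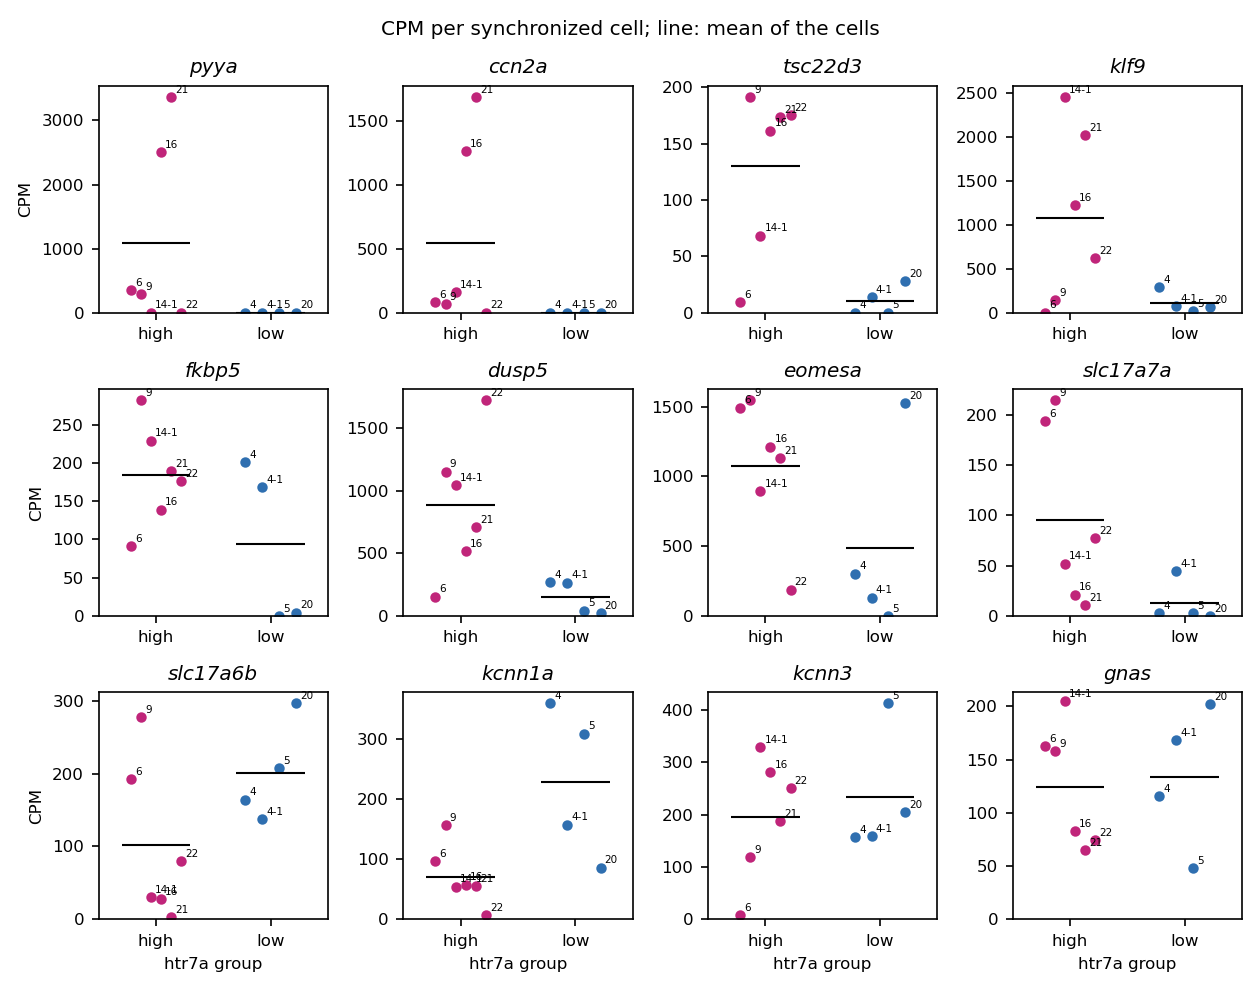
CPM of 12 named genes in each htr7a-high cell (left in each panel, magenta) and htr7a-low cell (right, blue), with the cell's number beside its point and the mean of the cells as a line. pyya and ccn2a are at 0 in all 4 htr7a-low cells and highest in cells 16 and 21, while gnas overlaps fully, at 64.6 to 205 CPM in htr7a-high cells and 48.0 to 203 CPM in htr7a-low cells.

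Genes downstream of a Gs-coupled receptor were counted by list. Lists as short as these cannot show whether such genes moved together. Of 12 measured genes of Gs and cAMP production, none was separated, none was higher by at least 1, against 11.4% of all measured genes, and 1 was lower by at least 1, against 9.04%, with a median difference of -0.26 against 0.08 over all measured genes. That median changed sign without cell 4, to 0.10. gnas, the Gs alpha gene, averaged 124.5 ± 58.2 CPM in htr7a-high cells and 133.5 ± 67.3 CPM in htr7a-low cells. The adenylyl cyclase gene adcy3a averaged 6.399 ± 7.59 CPM in htr7a-high cells and 43.2 ± 61.9 CPM in htr7a-low cells. In htr7a-low cells it was highest in cell 5, at 134 CPM.

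Of 16 measured genes in the list of cAMP effectors, 3 were higher by at least 1, against 11.4% of all measured genes. None was lower by that much, against 9.04%, and none was separated. The anchoring protein gene akap1b, with a difference of -1.50, is not in this list. Without cells 4-1 and 5, 1 list member was higher, against 11.1% of all measured genes, and 2 were lower, against 14.7%. prkar1ab, a regulatory subunit of protein kinase A, ranged from 93.1 to 943 CPM in htr7a-high cells and from 0 to 450 CPM in htr7a-low cells. rapgef3, the cAMP-activated exchange factor Epac1, was found in 5 of 6 htr7a-high cells at 41.3 to 102 CPM, and in htr7a-low cells in cell 4 only, at 231 CPM. Its mean CPM was therefore similar in both groups, at 51.4 ± 32.8 CPM in htr7a-high cells and 57.8 ± 116 CPM in htr7a-low cells. On the log2 scale rapgef3 was still 1 of the 3 higher members, with a difference of 1.17. That difference was 0.03 without cells 4-1 and 5.

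Of 12 measured phosphodiesterase genes in the list of cAMP breakdown, 3 were higher by at least 1, against 11.4% of all measured genes. In the other direction 1, pde8a, was lower, against 9.04%. The cGMP-specific pde9a is not in this list. pde3b, whose product cleaves cAMP, had 43.9, 4.40, 90.7, 90.8, 21.5 and 47.8 CPM in htr7a-high cells 6, 9, 14-1, 16, 21 and 22, against 8.80, 2.81, 1.57 and 5.11 CPM in htr7a-low cells 4, 4-1, 5 and 20, so that cell 9 alone overlapped the htr7a-low cells. pde11a ranged from 4.30 to 129 CPM in htr7a-high cells, was at 15.3 CPM in htr7a-low cell 20 and had no count in the other htr7a-low cells or in any non-synchronized cell. Of 6 measured Gi and Go alpha genes, 2 were higher by at least 1, against the same 11.4%, and none was separated. The number higher was 3 without cells 4-1 and 5, against 11.1% of all measured genes. gnai2a averaged 150.5 ± 136 CPM in htr7a-high cells and 15.96 ± 14.7 CPM in htr7a-low cells. It had no count in htr7a-high cell 14-1, below the 0.786 to 31.1 CPM of the htr7a-low cells. gnai2b averaged 129 ± 43.4 CPM in htr7a-high cells and 60.8 ± 46.0 CPM in htr7a-low cells.

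The small-conductance potassium (SK), HCN and T-type calcium channel genes, which shape slow rhythmic firing, held no separated member. Of 9 measured members 8 had a lower mean of log2(CPM + 10) in htr7a-high cells, where 46.6% of all measured genes had one, with a median difference of -0.56. Of these 9, 2 were lower by at least 1, against 9.04% of all measured genes, and 1 was higher by at least 1, against 11.4%. Without cells 4-1 and 5, 4 were lower, against 14.7% of all measured genes, and none was higher, against 11.1%. Several of the 8 were near 0 or of no fixed sign: hcn2b had a difference of -0.05, cacna1ia of -0.21 and kcnn1b of -0.41, and each changed sign under at least 1 alternative. In CPM, cacna1ia averaged 31.0 ± 43.7 in htr7a-high cells and 24.95 ± 10.2 in htr7a-low cells. kcnn1a, an SK channel gene, had 96.2, 157, 54.2, 57.7, 54.7 and 6.28 CPM in htr7a-high cells 6, 9, 14-1, 16, 21 and 22, against 361, 158, 310 and 85.9 CPM in htr7a-low cells 4, 4-1, 5 and 20. The groups overlapped through cells 6 and 9 on the htr7a-high side and cell 20 on the htr7a-low side. kcnn3, another SK channel gene, had 7.70 CPM in cell 6 and 119 to 328 CPM in the other htr7a-high cells, against 157 to 413 CPM in htr7a-low cells, and its difference of -0.58 became 0.04 without cell 6.

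cacna1g, a T-type calcium channel gene, had 40.8 CPM in cell 22 and at most 15.6 CPM in the other htr7a-high cells, against 275 CPM in cell 4, 46.1 in cell 4-1, 14.1 in cell 5 and 0 in cell 20 among the htr7a-low cells. cacna1ha, of the same class, averaged 73.8 ± 46.7 CPM in htr7a-high cells and 168 ± 123 CPM in htr7a-low cells. kcnn2 had at most 0.570 CPM in htr7a-high cells, against 61.8 CPM in htr7a-low cell 4-1, the cell with GABA neuron genes, and at most 0.786 CPM in the other htr7a-low cells.

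Among other channel genes, cacna2d1a, an auxiliary subunit of high-voltage calcium channels, was the separated member, at 126 to 297 CPM in htr7a-high cells and 35.8 to 104 CPM in htr7a-low cells. Of 23 measured high-voltage calcium channel entries, 4 were higher by at least 1, against 11.4% of all measured genes, and 4 were lower, against 9.04%, so the family had no common direction. cacna2d2b averaged 613 ± 349 CPM in htr7a-high cells and 182 ± 219 CPM in htr7a-low cells, while its paralog cacna2d2a averaged 1.52 ± 2.34 CPM in htr7a-high cells and 88.7 ± 62.0 CPM in htr7a-low cells. Of 34 measured potassium channel genes, 2 were higher by at least 1 and 3 were lower, against the same 11.4% and 9.04%. With cells 4-1 and 5 left out, 7 were higher, against 11.1% of all measured genes, and 6 were lower, against 14.7%. kcnip1b, a partner of Kv4 channels, ranged from 134 to 887 CPM in htr7a-high cells and was at 37.7, 38.9, 0 and 351 CPM in htr7a-low cells 4, 4-1, 5 and 20.

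Among the transcription factor genes of the pallium, more members were higher than lower in htr7a-high cells. Of 32 measured members, 11 were higher by at least 1, against 11.4% of all measured genes, and 2 were lower by at least 1, against 9.04%. Leaving out cells 4-1 and 5 gave 11 higher, against 11.1% of all measured genes, and 1 lower, against 14.7%. foxp1a was the separated member, and the median difference was 0.40, and 0.38 without cells 4-1 and 5. pou3f3b, a POU factor gene, had 242, 375, 142, 212, 247 and 486 CPM in htr7a-high cells 6, 9, 14-1, 16, 21 and 22, against 0, 26.5, 20.4 and 231 CPM in htr7a-low cells 4, 4-1, 5 and 20. Cell 20 alone reached the range of the htr7a-high cells.

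eomesa, the pallial T-box gene Tbr2, was also high in cell 20, with 1493, 1548, 893, 1214, 1129.6 and 188 CPM in htr7a-high cells 6, 9, 14-1, 16, 21 and 22, against 303, 132, 0.786 and 1525 CPM in htr7a-low cells 4, 4-1, 5 and 20. Its difference was 2.47 with all cells, 3.55 without cell 20, 1.16 without cell 5 and 0.40 without cells 4-1 and 5. mef2ca was at 25.6 to 86.5 CPM in 5 htr7a-high cells and at 0 in cell 22, against 2.79 CPM in cell 20 and 0 in the other htr7a-low cells. bhlhe22 averaged 922 ± 231 CPM in htr7a-high cells and 419 ± 253 CPM in htr7a-low cells, and neurod6b averaged 452 ± 281 CPM in htr7a-high cells and 229 ± 215 CPM in htr7a-low cells. On the other side, etv1 averaged 0.0950 ± 0.233 CPM in htr7a-high cells and 68.7 ± 79.4 CPM in htr7a-low cells. Only 2 htr7a-low cells had a count of etv1, with a highest value of 142 CPM. Also lower was nr2f2, at 94.8 ± 107 CPM in htr7a-high cells and 347 ± 388 CPM in htr7a-low cells. The general forebrain factor gene foxg1a differed little, by 0.27, at 220 ± 113 CPM in htr7a-high cells and 184 ± 113 CPM in htr7a-low cells.

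The vesicular glutamate transporters split by gene. slc17a7a (Vglut1) had 193, 215, 51.9, 21.1, 10.8 and 77.3 CPM in htr7a-high cells 6, 9, 14-1, 16, 21 and 22, against 2.51, 44.5, 2.36 and 0 CPM in htr7a-low cells 4, 4-1, 5 and 20. Every htr7a-high cell had the gene, and the groups overlapped only through the 44.5 CPM of cell 4-1. slc17a6b (Vglut2b) went the other way, with 193, 278, 30.8, 28.1, 3.01 and 79.8 CPM in htr7a-high cells 6, 9, 14-1, 16, 21 and 22, against 165, 137, 208 and 297 CPM in htr7a-low cells 4, 4-1, 5 and 20, a difference of -1.56. slc17a6a (Vglut2a) averaged 249 ± 92.1 CPM in htr7a-high cells and 311 ± 202 CPM in htr7a-low cells, with a difference of -0.01 whose sign changed under 6 of the alternatives.

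Within the htr7a-high cells, those with the most htr7a had the lowest sums of all transporters. This division used the same htr7a values that made the groups, and was neither planned nor tested. The sum was 729, 734 and 523 CPM in cells 6, 9 and 22, and 345, 189 and 165 CPM in cells 14-1, 16 and 21. In htr7a-low cells the sum was 635, 233, 685 and 547 CPM in cells 4, 4-1, 5 and 20.

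The stress hormone receptors and targets had the highest median difference of the 31 gene lists, 1.02, with 5 of 9 measured members higher by at least 1, against 11.4% of all measured genes, none lower by that much, against 9.04%, and none separated. Without cells 4-1 and 5, 3 were higher, against 11.1% of all measured genes, and none was lower, against 14.7%. In this list 7 members had a positive difference, and 2, per1b and sgk1, had a negative one. per1b averaged 107 ± 116 CPM in htr7a-high cells and 210 ± 230 CPM in htr7a-low cells, a difference of -0.49. sgk1 averaged 32.1 ± 48.8 CPM in htr7a-high cells and 29.7 ± 24.2 CPM in htr7a-low cells, a difference of -0.32. Glucocorticoid receptors bind cortisol and switch on targets such as tsc22d3, klf9 and fkbp5. klf9 is also counted among the immediate-early genes below. tsc22d3 had 9.23, 192, 68.4, 162, 173 and 175 CPM in htr7a-high cells 6, 9, 14-1, 16, 21 and 22, against 0, 13.6, 0 and 28.3 CPM in htr7a-low cells 4, 4-1, 5 and 20. klf9 had 0.770, 142, 2459, 1225, 2026 and 619 CPM in the same order of htr7a-high cells, against 288, 77.0, 19.7 and 62.2 CPM in the same order of htr7a-low cells. Cell 6 was the lowest htr7a-high cell for both genes, and klf9 was near 0 there.

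fkbp5 was at 91.6 to 282 CPM in htr7a-high cells, against 201 and 168 CPM in htr7a-low cells 4 and 4-1, and 0 and 4.18 CPM in cells 5 and 20. nr3c1, the glucocorticoid receptor gene, averaged 160.5 ± 147 CPM in htr7a-high cells and 60.3 ± 67.3 CPM in htr7a-low cells, a difference of 1.34 that was -0.36 without cells 4-1 and 5. The median of the list ranged from 0.62 without cell 4-1 to 1.81 without cell 4, and was 0.54 without cells 4-1 and 5, where the Gi and Go alpha genes had the higher median, 0.84.

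Immediate-early genes, which neurons transcribe after activity, did not share a direction with all cells in. Of 31 measured members, 7 were higher by at least 1, against 11.4% of all measured genes, and 2 were lower, against 9.04%, with a median difference of 0.24 that was -0.01 without cell 22. Without cells 4-1 and 5, 11 were higher, against 11.1% of all measured genes, and 1 was lower, against 14.7%. dusp5, a MAP kinase phosphatase gene, had 155, 1154, 1042, 516, 709 and 1726 CPM in htr7a-high cells 6, 9, 14-1, 16, 21 and 22, against 269, 266, 42.4 and 25.1 CPM in htr7a-low cells 4, 4-1, 5 and 20, so only cell 6 overlapped. egr4 averaged 1185 ± 1209 CPM in htr7a-high cells, with 3445 CPM in cell 22, and 282 ± 275 CPM in htr7a-low cells. fosb averaged 82.8 ± 80.0 CPM in htr7a-high cells and 289 ± 250 CPM in htr7a-low cells, while npas4a, an activity-induced factor, averaged 974 ± 808 CPM in htr7a-high cells and 910 ± 274 CPM in htr7a-low cells.

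All 13 mitochondrially encoded genes had a lower mean in htr7a-high cells, where 46.6% of all measured genes had one, and 5 were lower by at least 1, against 9.04%. Without cells 4-1 and 5 all 13 were lower by at least 1, against 14.7%. That comparison leaves only cells 4 and 20 as htr7a-low cells, and cell 4 is the shallowest library. It also drops cell 4-1, the htr7a-low cell with the smallest share of these genes. With all cells the median difference was -0.89, and -0.94 when the 13 genes were left out of the library total. They made up 2.09% to 7.36% of the counts in htr7a-high cells and 14.04%, 2.50%, 8.21% and 6.43% in htr7a-low cells 4, 4-1, 5 and 20, so the groups overlapped and cell 4 stood highest. These 13 genes are read from 1 circular genome and are not independent of each other.

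**Figure D4:**
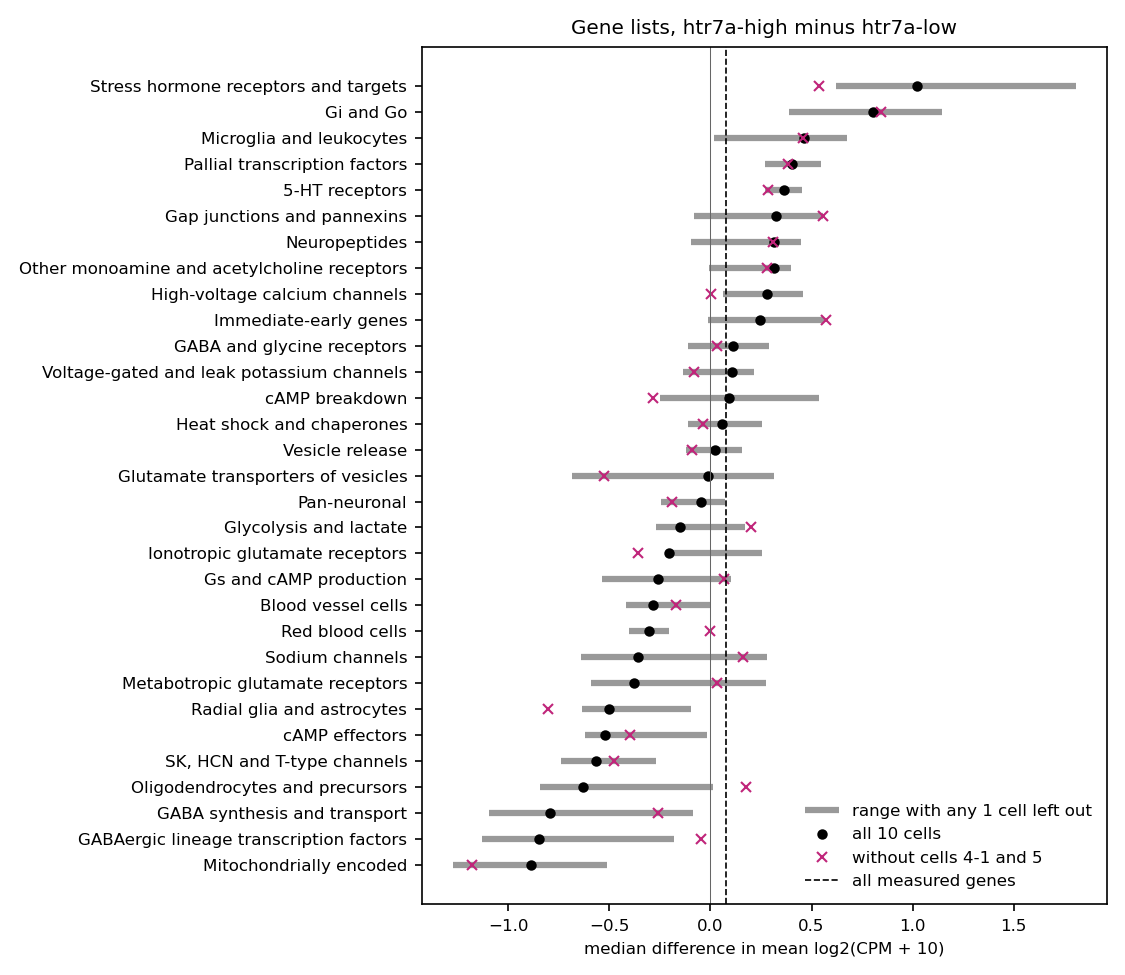
Median difference in mean log2(CPM + 10) between htr7a-high and htr7a-low cells for each of 31 gene lists (points), with the range when any 1 of the 10 cells is left out (grey bars), the value without cells 4-1 and 5 (crosses) and the median of all measured genes, 0.08 (dashed line). Stress hormone receptors and targets lie highest at 1.02, and mitochondrially encoded genes lowest at -0.89.

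Several lists held genes whose difference came mainly from 1 htr7a-low cell. Of 6 measured genes of GABA synthesis and transport, 3 were lower by at least 1 in htr7a-high cells, against 9.04% of all measured genes, and 1 was higher, against 11.4%. Without cells 4-1 and 5, 1 was lower, against 14.7% of all measured genes, and none was higher, against 11.1%. The largest difference was that of the GABA transporter gene slc6a1b, and it did not rest on cell 4-1. It averaged 9.91 ± 9.27 CPM in htr7a-high cells and 181 ± 217 CPM in htr7a-low cells. The difference was -2.40 with all cells, -1.59 without cell 4-1 and -2.76 without cells 4-1 and 5. gad2, a GABA synthesis enzyme gene, had at most 1.14 CPM in htr7a-high cells, against 382 CPM in cell 4-1 and at most 3.25 CPM in the other htr7a-low cells. slc32a1, the vesicular GABA transporter gene, had at most 0.502 CPM in htr7a-high cells, against 293 CPM in cell 4-1 and at most 5.57 CPM in the other htr7a-low cells. The factor genes of GABA neurons dlx1a (190 CPM) and gsx2 (64.2 CPM) were found, among the synchronized cells, in cell 4-1 only. dlx5a, of the same lineage, was instead highest in cell 20, at 109 CPM. The peptide gene tac1 had no count in htr7a-high cells, against 2297 CPM in cell 4-1, 3.77 CPM in cell 4 and none in cells 5 and 20. The peptide gene cart4 had at most 10.6 CPM in htr7a-high cells, against 2776 CPM in cell 5. The secreted precursor gene vgf had at most 185 CPM in htr7a-high cells (cell 22), against 3292 CPM in cell 5. Cell 5 alone did not set it: the difference was -3.32 with all cells, -1.97 without cell 5 and -0.61 without cells 4-1 and 5.

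Of 12 measured radial glia genes, 8 had a lower mean of log2(CPM + 10) in htr7a-high cells, where 46.6% of all measured genes had one. By at least 1, 4 were lower, against 9.04%, and 2 were higher, against 11.4%, and none was separated. Leaving out cells 4-1 and 5 gave 5 lower, against 14.7%, and 3 higher, against 11.1%. The median difference was -0.50 and stayed below 0 in every alternative, but single members went both ways. her6, a Notch target gene, had 201, 329, 266, 254, 96.0 and 41.5 CPM in htr7a-high cells 6, 9, 14-1, 16, 21 and 22, against 131 CPM in htr7a-low cell 20 and none in cells 4, 4-1 and 5. fabp7a and sox2 averaged 26.0 ± 36.6 and 0.0836 ± 0.205 CPM in htr7a-high cells, against 175 ± 179 and 46.8 ± 62.3 CPM in htr7a-low cells. Counts were found in 3 htr7a-low cells for fabp7a and in only 2 for sox2.

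The htr7a-low cells were unlike each other. Pearson's r of log2(CPM + 10) over all measured genes was 0.57 to 0.71 between htr7a-high cells (median 0.60, 15 pairs) and 0.46 to 0.57 between htr7a-low cells (median 0.48, 6 pairs). It was 0.43 to 0.71 between cells of different groups (median 0.53, 24 pairs). Cell 20 was as close to the htr7a-high cells as they were to each other, with a median of 0.65, while cells 4, 4-1 and 5 had medians of 0.54, 0.53 and 0.47. These correlations are across genes, which are not independent replicates, and they share each library's depth.

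**Figure D5:**
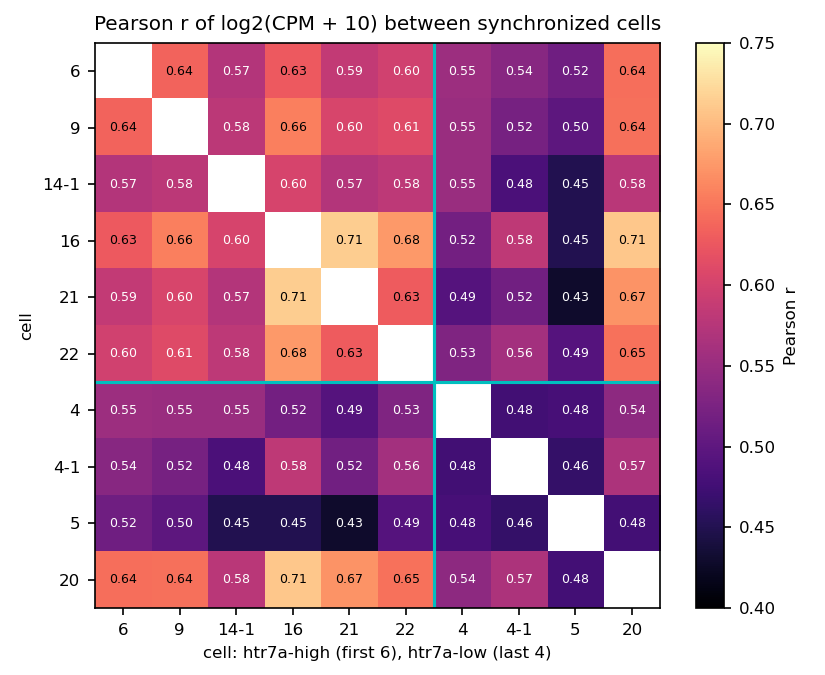
Pearson r of log2(CPM + 10) over measured genes between every pair of synchronized cells, htr7a-high cells first and htr7a-low cells last, divided by cyan lines. The htr7a-high block runs from 0.57 to 0.71, and htr7a-low cell 20 matches it (0.58 to 0.71) while cell 5 is the least like any htr7a-high cell (0.43 to 0.52).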

How the data were processed

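For the single neurons the authors' methods name stranded mRNA libraries and paired-end reads of 75 bp. The deposited table holds unnormalized read counts of 18820 genes in 20 libraries, made by the authors. Their processing notes name danRer11 as genome and edgeR 3.14.0. Which aligner and which counter they ran is not given in the sources used here. Columns that belong to no sample numbered 0. Gene names were those of the table: 58 genes have none and 515 share one, so values of genes with a shared name or a close paralog are uncertain; 95.2% of the IDs occur in the reference names.

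From the deposited counts, CPM were computed over each library's total, and group values were means with SD over cells. The difference was taken on log2(CPM + 10). Genes with a mean of at least 1 CPM over the 10 synchronized cells were measured. A count of 0 was given an upper limit of 3 counts. The cells labelled 4 and 4-1 differed as other pairs did and were kept apart; their shared number may mark 1 fish, which the labels do not say, so n counts cells and not fish, and averaging them was tried. The members and the 31 gene lists (682 genes, 124 not found by symbol) were chosen with earlier results of these data known.

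Named genes were the 12 separated genes per direction with the largest difference, a symbol, at least 20 CPM on average and a count in every cell of the higher group, the 6 highest and 6 lowest Spearman correlations with htr7a, up to 4 members per list with the largest difference and every separated one, and all members of the 5-HT receptor, glutamate transporter and channel lists given in full. The text gives some of these only, and 1 member is not reported here.

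Alternatives were TMM (edgeR 4.0.16) and poscounts scaling (DESeq2 1.42.0), used for size factors only, totals without mitochondrial genes, another pseudocount or filter, thinning, averaging cells 4 and 4-1, and leaving out cells. Scripts ran under R 4.3.3 and Python 3.11.15 (scipy 1.17.1, pandas 2.3.3, numpy 2.4.6, matplotlib 3.10.9).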

Additional observations from a re-analysis of the deposited data

Results flagged for a closer look

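In 16 of 72 groups of 4 or 6 cells examined, 1 cell lay apart from the rest of its group by Dixon's criterion. For independent, normally distributed values chance meets it in about 1 group in 20. Marker sums were judged unlogged, and most of the genes were chosen for not overlapping. The number of flagged groups can therefore not be set against that rate. Genes were judged on log2(CPM + 10).

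Marker sums stood apart in 5 groups. Microglia and leukocyte genes summed to 381 CPM in htr7a-high cell 14-1 and to 37.6 CPM in htr7a-low cell 20. Red blood cell genes summed to 509 CPM in htr7a-high cell 6 and to 11297 CPM in htr7a-low cell 5. gad1b, gad2 and slc32a1 summed to 683 CPM in htr7a-low cell 4-1.

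Among htr7a-high cells, cell 22 stood low for arhgap4a (247 CPM) and eomesa (188 CPM), cell 21 for bsdc1 (51.7 CPM) and cell 6 for kcnn3 (7.70 CPM). Cell 9 stood high for anapc1 (65.6 CPM), cell 14-1 for smarcad1b (2.28 CPM) and cell 16 for tenm3 (0.502 CPM), the last from 1 count.

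Among htr7a-low cells, cell 4-1 stood high for slc17a7a (44.5 CPM) and pde9a (1.604 CPM) and low for strn4 (2.41 CPM), and cell 4 stood low for gtf2e2 (86.7 CPM). Cell 4-1 thus stood apart in 4 of these groups.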

How the results depend on the processing

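Separated genes numbered 53 higher and 41 lower in htr7a-high cells. The counts were 55 and 45 with TMM, 60 and 44 with poscounts, 52 and 43 with totals without mitochondrial genes, 55 and 46 with a pseudocount of 1 CPM, 51 and 32 with a mean of at least 10 CPM, 53 and 41 with no filter, and a median of 48 and 39 over 100 draws thinned to 795838 counts. Averaging cells 4 and 4-1 gave 78 higher and 129 lower, and leaving out cells 4-1 and 5 gave 162 and 390, of which 51 and 35 were shared with the full set. With any 1 cell left out the counts were 66 (without cell 16) to 220 (without cell 20) higher and 50 (without cell 21) to 133 (without cell 5) lower; fewer cells overlap less by construction. The median difference of all genes stayed between 0.00 and 0.16 in these. Medians of lists near 0, such as vesicle release and glutamate transporters, changed sign under some of these. No paired analysis was possible because both sets of cells are synchronized cells and their label numbers only name cells. Depth limits genes near 0: 3 counts were 1.203 to 3.77 CPM in htr7a-low cells.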

Other observations

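Of 8 measured oligodendrocyte and precursor genes, 5 had a lower mean of log2(CPM + 10) in htr7a-high cells, where 46.6% of all measured genes had one. By at least 1, 2 were higher, against 11.4%, and 2 were lower, against 9.04%. Among the myelin genes, plp1b had 267 counts over the htr7a-high cells, in 5 of 6 cells at 9.69 to 45.2 CPM, and none over the htr7a-low cells. That is at least 53.2-fold higher against a floor of 3 counts over the group. mbpb was also higher, averaging 40.8 ± 28.0 CPM in htr7a-high cells and 5.29 ± 9.79 CPM in htr7a-low cells. With all cells mag went the other way, averaging 61.9 ± 62.4 CPM in htr7a-high cells and 234 ± 342 CPM in htr7a-low cells, with 742 CPM in cell 5. The difference of mag was -1.06 with all cells, -0.07 without cell 5 and 0.53 without cells 4-1 and 5. The precursor gene olig1 was also lower, with no count in htr7a-high cells and 111 ± 200 CPM in htr7a-low cells. Its difference was -1.89 with all cells and -0.73 without cell 4-1. The summed oligodendrocyte genes were 51.2 to 246 CPM in htr7a-high cells and 19.97 to 776 CPM in htr7a-low cells.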
